A study of Mus musculus with 4 samples.

Results

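The genes described here encode the enzymes and the receptor of the side routes that glucose can take out of glycolysis: Akr1b3 and Akr1b8, Sord and Khk of the polyol and fructose route, Glo1 and Hagh of the glyoxalase system, Gfpt1, Gfpt2 and Ogt of the hexosamine route, and Ager, the receptor for advanced glycation end products (AGEs). They were chosen by name, and every transcript probe that the array design assigns to them was taken. All 10 were found among the 31093 gene names of the array, on 15 of 39429 probes, of which 14 were well above background on all 4 arrays. The remaining probe, the third of Gfpt1, was not well above background on any array.

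Gene expression was measured in IMS32 cells, Schwann cells of adult mice that became immortal spontaneously and are grown as a line. All cultures stayed for 1 h in DMEM with 5% FBS. The medium held 5 mM glucose, termed normal here, or 15 mM glucose, termed high, each with 1 mM or 0 mM pyruvate. At normal glucose the culture with pyruvate was [Glc 5 mM/Pyr (+)] and that without was [Glc 5 mM/Pyr (−)]. At high glucose they were [Glc 15 mM/Pyr (+)] and [Glc 15 mM/Pyr (−)]. Each was hybridized to 1 one-colour array, and all 4 arrays lay on 1 slide. There were no replicates, so no difference between conditions could be tested, and the number of arrays limits the precision. RNA of a whole culture was measured, so fewer cells of a type and less RNA per cell cannot be told apart.

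In the polyol pathway, aldose reductase reduces glucose to sorbitol with NADPH, and sorbitol dehydrogenase oxidizes sorbitol to fructose. Schwann cells are known for their aldose reductase, and the pathway has long been studied in diabetic neuropathy. The glyoxalase system removes methylglyoxal, a reactive by-product of the triose phosphates, which otherwise forms AGEs. The hexosamine pathway branches off at fructose 6-phosphate and ends in UDP-GlcNAc, the donor for O-GlcNAc on proteins. The study measured the products of the polyol pathway and the aldose reductase protein in these conditions, and the arrays address whether the mRNAs of these routes differed as well.

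The signal is the background-corrected intensity of a probe. A level is the log2 of that signal minus the log2 of the 75th percentile of the same array, which was 1788, 1740, 1597 and 1632 in the order in which the conditions are named above. Groups of 4 values follow that order throughout. A difference is a difference of 2 levels of the same probe, and levels of different probes were not compared. The error given as ± is the SD within an array, taken from 399 probes that were printed in 10 spots each on every array. For a difference between 2 single spots it was 0.076 for the brightest of these probes, 0.091 at signals from 1614 to 5345, 0.098 from 287 to 1611, 0.18 from 27.1 to 274.5 and 0.53 from 4.62 to 26.7. It leaves out the variation between arrays and between cultures. The scanner software gives its own error for each value. For the probes of Akr1b8, Sord and Hagh that error was 0.144, against an SD between spots of 0.065, 0.054 and 0.065. For the dim Ager probe it was 0.21 to 0.30, against 0.38. Statements about 2 times the SD use the SD between spots, which for the bright probes is the smaller error.

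The arrays had 28473 to 30347 probes well above background and 0 saturated spots. All 10 Schwann cell markers examined were well above background on all 4 arrays, among them Sox10, with signals from 4837 to 5667, and Ngfr, while Erbb3 (15.6 to 22.2) was dim. Of the markers of other cell types, 5 of 6 for fibroblasts, 4 of 4 for macrophages, 1 of 3 for endothelium and 2 of 3 for neurons were above background on all arrays, and the endothelial marker Cdh5 was on none. The summed signal of the macrophage markers was 2328, 2376, 2028 and 2914, and that of the Schwann cell markers 64130, 60060.1, 57384 and 52565. These signals are not scaled, and the 75th percentile of the arrays differed too. The Schwann cell markers did not move alike. From [Glc 5 mM/Pyr (+)] to [Glc 15 mM/Pyr (−)] S100b went from 3519 to 4319, Sox10 from 5413 to 5409 and Ngfr from 17404 to 15499. The macrophage sum followed Cd68, with a signal of 1817 in [Glc 15 mM/Pyr (−)] against 969 in [Glc 15 mM/Pyr (+)], while Csf1r (1041 against 1001) and Adgre1 (32.6 against 29.9) differed little and Ptprc was lower (23.4 against 27.6). The part of these markers in the differences below was not tested.

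Expression of the 10 genes differed little between the conditions. With and without pyruvate, 0 of 10 reached 2-fold at normal glucose, where 1.18% of all genes did, and 0 of 10 at high glucose, where 2.16% did. For 15 mM against 5 mM glucose, 0 of 10 reached 2-fold with pyruvate, where 1.00% of all genes did, and 0 of 10 without, where 2.45% did. Most members are in the brightest of 3 classes of genes by signal. In that class 0.00% reached 2-fold for pyruvate at normal glucose and 0.444% at high glucose. For glucose, 0.00% of that class did with pyruvate and 0.444% without. For a list of 10 genes these background shares leave a count of 0 unremarkable. At 1.5-fold, 0 of 10 passed for pyruvate at normal glucose, where 3.46% of all genes did, and 0 of 10 for glucose with pyruvate, where 3.33% did. In the brightest class these shares were 0.0965% and 0.183%. Of the 14 measured probes, 13 varied by less than 0.5 on the log2 scale over the 4 arrays, and the exception was the dim probe of Ager. [Glc 15 mM/Pyr (−)] held the highest level of 8 of these 14 probes, a position it held for 38.0% of all 27590 probes that were well above background on every array.

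**Figure D1:**
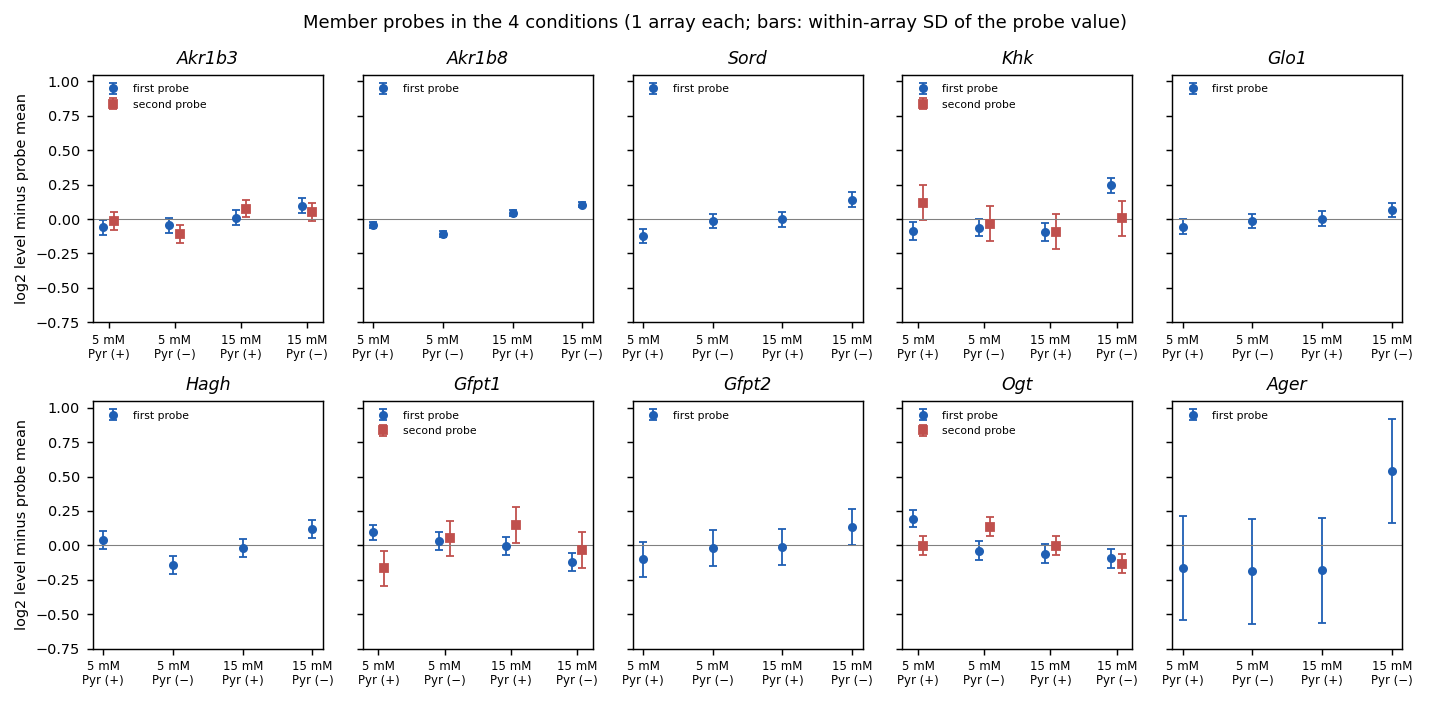
Levels of the 14 measured probes of the 10 genes in the 4 conditions, each as the log2 level minus the mean of that probe over the 4 arrays. Each point is 1 array and the bars are the SD of the value within an array. Sord, Glo1, Gfpt2 and the first probe of Akr1b3 rank the 4 conditions in the same order. Neighbours in this order differed by no more than 2 times the SD. The probes of Gfpt1 and Ogt do not share a pattern. The bars of Ager are the widest.

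Akr1b3, the mouse aldose reductase, had 2 probes. The first, which has no position in the array file, had signals of 47128, 46351, 44212 and 47985 and levels of 4.72, 4.74, 4.79 and 4.88. The second lies on chromosome 6 of mm9 from 34260573 to 34260632 on the minus strand, with signals of 4782, 4352, 4551 and 4565 and levels of 1.42, 1.32, 1.51 and 1.48. Both read higher on the 15 mM arrays than on the 5 mM arrays, by no more than 0.16 at matched pyruvate. The second probe is shown, since it stands for the enzyme that opens the polyol pathway:
Akr1b3 second probe: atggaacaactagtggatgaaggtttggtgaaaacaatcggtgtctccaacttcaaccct

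As a mean over both probes, Akr1b3 differed without pyruvate by -0.04 ± 0.06 at normal glucose and by 0.03 ± 0.06 at high glucose. Each value lies within the error of an array. The differences between 15 mM and 5 mM glucose were 0.08 with pyruvate and 0.15 without. Both stayed above 0 with quantile normalization, at 0.04 and 0.08, and became negative with spike-in scaling, at -0.27 and -0.05.

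Akr1b8, a further aldo-keto reductase of the same family, had 1 probe (chromosome 6, 34318338 to 34318397), printed in 10 spots on each array. Its spots had mean levels of 0.34 ± 0.05 (SD, 10 spots), 0.28 ± 0.05, 0.43 ± 0.05 and 0.49 ± 0.05. The spots of [Glc 5 mM/Pyr (−)] ranged from 0.20 to 0.34 and those of [Glc 15 mM/Pyr (−)] from 0.41 to 0.56, so the levels of these 2 arrays did not overlap. Before scaling, their spot signals did, from 1993 to 2196.5 and from 2167 to 2399.7. Those of both arrays with pyruvate, from 0.26 to 0.42 and from 0.35 to 0.50, overlapped each other. The spots are repeats on 1 array and not repeats of the culture.

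**Figure D2:**
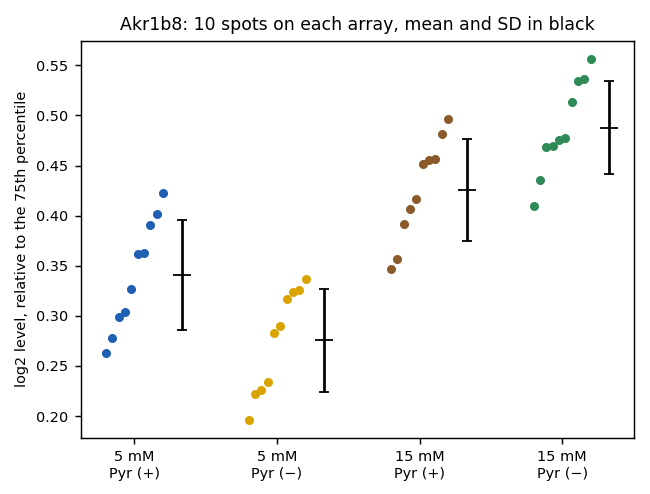
Levels of Akr1b8 in the 10 spots of its probe on each of the 4 arrays, with the mean and SD of the spots in black. The vertical axis is the log2 signal relative to the 75th percentile of the array. [Glc 5 mM/Pyr (−)] was the lowest, at 0.28, and [Glc 15 mM/Pyr (−)] the highest, at 0.49.

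From the averaged spots, Akr1b8 differed without pyruvate by -0.07 ± 0.03 at normal glucose and by 0.06 at high glucose. Between the glucose concentrations it differed by 0.08 with pyruvate and by 0.21 without, a 1.16-fold difference. With spike-in scaling the difference between the glucose concentrations was -0.27 with pyruvate and 0.01 without. At the scaling used here, all 4 differences exceeded 2 times the SD within an array, which for this gene is small because of its 10 spots.

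Sord encodes sorbitol dehydrogenase. Its probe (chromosome 2, 122091013 to 122091072) had signals of 9340, 9799, 9074 and 10230 and levels of 2.39, 2.49, 2.51 and 2.65. It was lowest in [Glc 5 mM/Pyr (+)] and highest in [Glc 15 mM/Pyr (−)]. The differences without pyruvate were 0.11 ± 0.08 at normal glucose and 0.14 ± 0.08 at high glucose. Between the glucose concentrations they were 0.12 with pyruvate and 0.15 without, and the last of these was the one that exceeded 2 times the SD. With spike-in scaling the difference at normal glucose turned to -0.08 and those between glucose concentrations to -0.23 and -0.04.

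Khk, ketohexokinase, phosphorylates fructose. The first of its 2 probes (chromosome 5, 31233555 to 31233614) had signals of 4797, 4752, 4264 and 5512 and levels of 1.42, 1.45, 1.42 and 1.76. The first 3 conditions were nearly level, and [Glc 15 mM/Pyr (−)] stood above them. The difference without pyruvate was 0.03 at normal glucose and 0.34 ± 0.08 at high glucose, the second being 1.27-fold and the largest for pyruvate among the members apart from that of Ager.

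The second Khk probe (chromosome 5, 31229105 to 31229164) was much dimmer, with signals of 160, 140.03, 123 and 135. Its levels of -3.48, -3.64, -3.69 and -3.60 were highest in [Glc 5 mM/Pyr (+)]. Its differences without pyruvate were -0.15 ± 0.18 and 0.10 ± 0.18, so the rise of the first probe could be neither seen nor set aside at this signal. The mean over both probes, used for the gene, was -0.06 at normal glucose and 0.22 at high glucose. The probes are shown side by side because they gave different differences. Of the first, only the last 30 bases are given, with the letters AATAAA in capitals, which are also those of the common polyadenylation signal:
Khk first probe: agatacctggagcaAATAAAtcttcccctg
Khk second probe: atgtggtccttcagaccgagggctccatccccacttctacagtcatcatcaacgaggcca

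These letters were found in 4 of the 15 probes, those of Sord, the first of Khk, the first of Gfpt1 and that of Gfpt2. The labelling starts from the poly(A) tail, so the distance of a probe from the transcript end can matter for its signal. The last 30 bases of the other 3 are given with the same letters in capitals:
Sord: tgcttcgcatAATAAActgttgatggtgtc
Gfpt1 first probe: AATAAAttacccaaaaccttgctgtgtgac
Gfpt2: atgtactatgcaattttacAATAAAgacag

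Glo1, glyoxalase I, converts the adduct of methylglyoxal and glutathione to lactoylglutathione. Its probe (chromosome 17, 30729951 to 30730010, minus strand) had signals of 30623, 30674, 28489 and 30408 and levels of 4.10, 4.14, 4.16 and 4.22. This was the narrowest range of the 14 probes, at 0.12. The differences without pyruvate were 0.04 ± 0.08 and 0.06 ± 0.08, and those between glucose concentrations 0.06 and 0.08. None exceeded 2 times the SD.

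Hagh, glyoxalase II, splits lactoylglutathione and returns the glutathione. Its probe (chromosome 17, 24998295 to 24998354) had signals of 4343, 3723, 3718 and 4187 and levels of 1.280, 1.097, 1.219 and 1.360. Without pyruvate it was lowest at normal glucose and highest at high glucose. The difference without pyruvate was -0.18 ± 0.09 at normal glucose and 0.14 ± 0.09 at high glucose, and the sign of each was kept under every alternative processing tried. Between the glucose concentrations it was -0.06 with pyruvate and 0.26 without. The probe is shown because its gene had the largest change of direction among the members with a bright signal:
Hagh: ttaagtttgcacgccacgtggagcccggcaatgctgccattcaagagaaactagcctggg

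Gfpt1 and Gfpt2 encode glutamine:fructose-6-phosphate amidotransferases, which catalyse the rate-limiting step into the hexosamine pathway. The first Gfpt1 probe (chromosome 6, 87042142 to 87042201) had signals of 5608, 5231, 4688 and 4406 and levels of 1.65, 1.59, 1.55 and 1.43. Its differences without pyruvate stayed within 2 times the SD, with -0.06 ± 0.08 at normal glucose and -0.12 ± 0.09 at high glucose. The order of the 4 arrays was the reverse of that of Sord, though neighbours in this order differed by no more than 2 times the SD.

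The second Gfpt1 probe (chromosome 6, 87038306 to 87038365) was dim, with signals of 44.9, 50.8, 49.9 and 44.9. It differed by 0.22 ± 0.18 and -0.18 ± 0.18, and at normal glucose it had the opposite sign to the first. The mean of both probes was 0.08 and -0.15, and the first of these turned to -0.06 when the brightest probe alone stood for the gene. The third probe (chromosome 6, 87005285 to 87005344) had signals of 2.83 to 4.31 and was left out.

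Gfpt2 (chromosome 11, 49652045 to 49652104) had signals of 125.1, 129, 119 and 134 and levels of -3.84, -3.75, -3.75 and -3.60. The differences without pyruvate were 0.08 ± 0.18 at normal glucose and 0.14 ± 0.18 at high glucose. At this signal they lie within the error of an array.

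Ogt adds O-GlcNAc from UDP-GlcNAc to nuclear and cytosolic proteins. Its first probe (chromosome X, 98879145 to 98879204) had signals of 1631, 1352, 1221 and 1218 and levels of -0.13, -0.36, -0.39 and -0.42. It stood highest in [Glc 5 mM/Pyr (+)], and the other 3 conditions lay close together. The difference without pyruvate was -0.23 ± 0.09 at normal glucose and -0.03 at high glucose, and that for glucose with pyruvate was -0.26.

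The second Ogt probe, without a position in the file, had signals of 428, 458, 382 and 357 and levels of -2.06, -1.92, -2.06 and -2.19. It was highest in [Glc 5 mM/Pyr (−)], where the first probe was not. Its differences without pyruvate were 0.14 at normal glucose and -0.13 at high glucose, and that for glucose without pyruvate was -0.27. Both probes had their lowest level in [Glc 15 mM/Pyr (−)]. The gene means were -0.05 ± 0.07 and -0.08 ± 0.07. The second probe is shown, since it disagreed with the first at normal glucose:
Ogt second probe: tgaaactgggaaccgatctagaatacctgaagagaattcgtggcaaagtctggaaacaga

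Ager encodes RAGE, a receptor that binds AGEs and S100 proteins. Its probe, without a position in the file, had signals of 15.9, 15.2, 14.005 and 23.6 and levels of -6.82, -6.84, -6.83 and -6.11. The first 3 arrays were alike and [Glc 15 mM/Pyr (−)] was above them. The difference without pyruvate was -0.02 at normal glucose and 0.72 ± 0.53 at high glucose, and that for glucose without pyruvate was 0.73 ± 0.53.

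Ager was the 1 member past 1.5-fold in both comparisons that include [Glc 15 mM/Pyr (−)], where 6.76% and 7.43% of all genes were. Among the dimmest of 3 classes of genes by signal, the shares were 11.6% and 15.1%. With normexp background correction the difference for pyruvate at high glucose was 0.04 and that for glucose without pyruvate 0.12. That setting also adds an offset to every signal, and which of its steps lowered the differences was not tested. The probe is shown because it is the only one of the gene:
Ager: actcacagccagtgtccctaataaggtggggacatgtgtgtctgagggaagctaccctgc

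**Figure D3:**
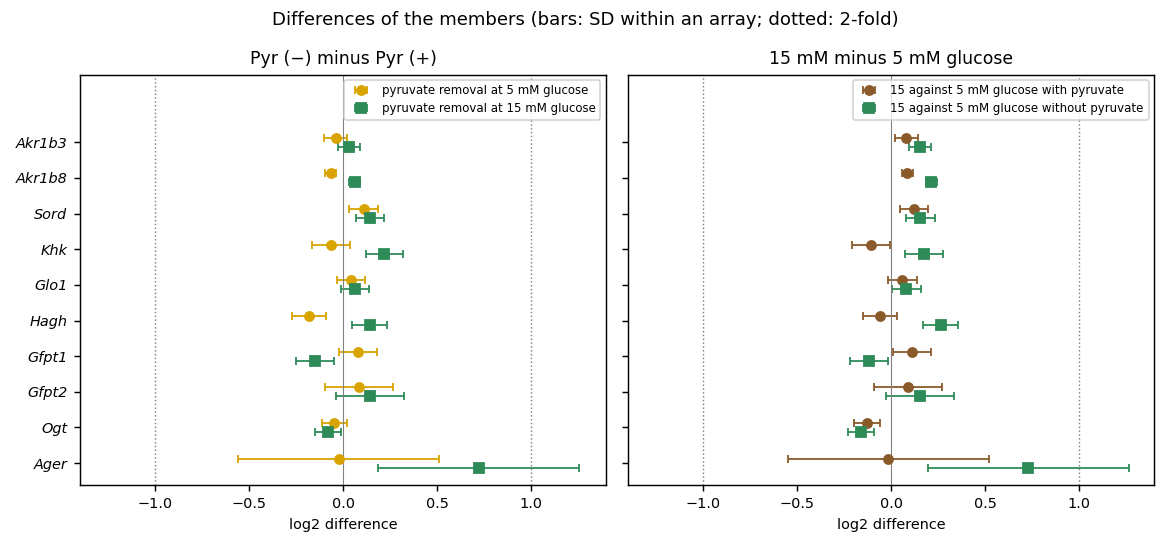
Log2 differences of the 10 genes, averaged over their measured probes, without against with pyruvate (left) and between 15 mM and 5 mM glucose (right). Bars are the SD within an array and dotted lines mark 2-fold, which no gene reached. Ager at 0.72 and 0.73 lay farthest from 0, with the widest bars.

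Over the 10 genes, the median difference without pyruvate was -0.03 at normal glucose and 0.10 at high glucose, beside -0.02 and 0.03 over all genes. At 5 mM glucose 4 members were above 0 and 6 below, with Hagh at -0.18 and Sord at 0.11 as the extremes, and 43.9% of all genes were above 0. At 15 mM glucose 8 were above 0 and 2 below, and the 2 below were Gfpt1 at -0.15 and Ogt at -0.08, while 56.9% of all genes were above 0. The polyol and glyoxalase members lay from 0.03 to 0.22 at high glucose, and Akr1b3, the lowest of them, turned its sign under 2 of the alternatives.

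For 15 mM against 5 mM glucose, the median was 0.07 with pyruvate and 0.15 without, beside -0.02 and 0.03 over all genes. The extremes were Ogt at -0.13 and Sord at 0.12 with pyruvate, and Ogt at -0.16 and Ager at 0.73 without. These comparisons share arrays with those of pyruvate and with each other. Scaling to the spike-in controls lowered all genes together, for pyruvate by 0.19 at normal and 0.04 at high glucose, and for glucose by 0.35 where pyruvate was present and 0.20 where it was absent. The medians of the members then became -0.22, 0.07, -0.28 and -0.04, so their sign for glucose turned with this scaling. With pyruvate, the median for glucose was 0.014 with cyclic loess and 0.025 with the brightest probes, and 0.02 over the brightest of 3 classes of genes by signal, to which 8 of the members belong.

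The difference without pyruvate at high glucose minus that at normal glucose was above 0 for 8 of 10 members, as for 58.7% of all genes, with a median of 0.07 over the members and 0.05 over all genes. For 6 members the signs at both concentrations were opposite, as for 49.6% of all genes. Among these, both differences of Akr1b3 lay within their error, as did those of Khk, Gfpt1 and Ager at normal glucose. Hagh had 0.32 ± 0.13, Khk 0.28 ± 0.14 and Akr1b8 0.13 ± 0.04, and Gfpt1 had -0.23 ± 0.14. The value of Gfpt1 came from its dim second probe, at -0.40 against -0.06 for the first, and it was 0.04 without a filter on dim probes. That of Ager, 0.75 ± 0.76, was smaller than its error. With 1 array per condition these values have no test.

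Further genes of the same routes were taken from 4 lists. Of 12 genes around polyols and fructose 11 were measured, of 12 around glyoxalase and glutathione 12, of 16 around hexosamine and O-GlcNAc 16, and of 15 AGE receptors and ligands 12. In every list 0 genes reached 2-fold in either direction in any of the 4 comparisons, where 1.00% to 2.45% of all genes did. The medians without pyruvate were 0.06, 0.04, 0.04 and 0.04 at normal glucose and 0.10, 0.05, 0.13 and 0.10 at high glucose in that order. Over all genes they were -0.02 at normal glucose and 0.03 at high glucose.

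**Figure D4:**
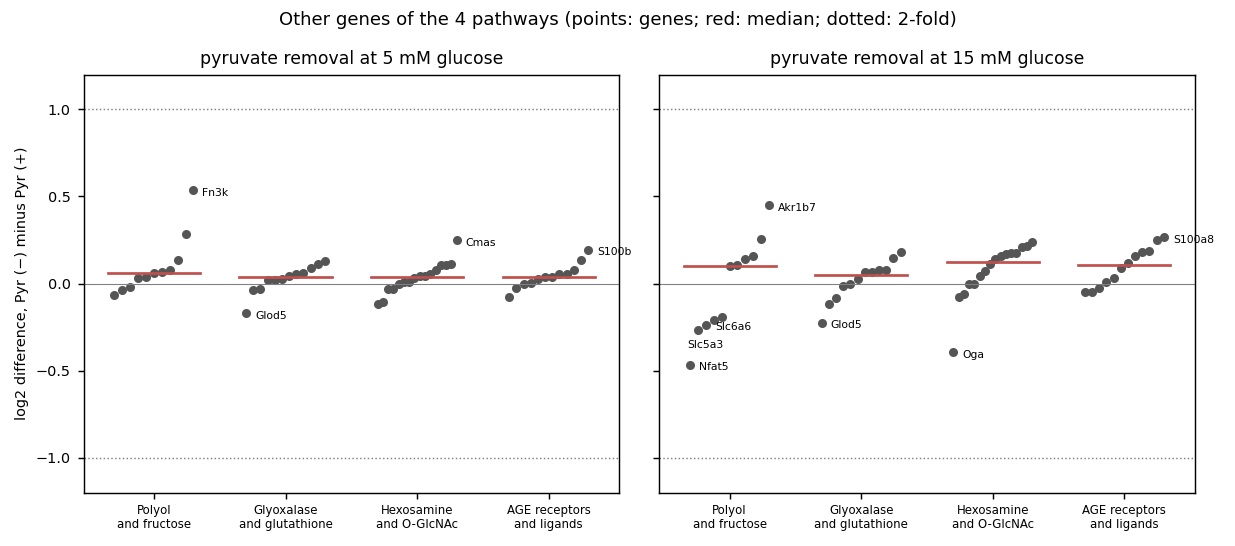
Log2 differences without against with pyruvate at normal glucose (left) and 15 mM glucose (right) for the measured genes of the 4 lists. Each point is a gene, red lines are medians and dotted lines mark 2-fold. At 15 mM glucose Nfat5 at -0.46 and Oga at -0.39 lay below the rest of their lists, and Akr1b7 at 0.45 above.

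Among the polyol and fructose genes, Nfat5 had the largest difference at high glucose. It encodes the transcription factor of the osmotic stress response, which is known to act on aldose reductase and on osmolyte carriers. Its signals were 174.8, 173.8, 144.7 and 107.1, the lowest being that of [Glc 15 mM/Pyr (−)]. The difference without pyruvate was 0.03 ± 0.18 at normal glucose and -0.46 ± 0.18 at high glucose, and between the glucose concentrations it was -0.61 without pyruvate.

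The osmolyte carriers of the list were chosen for mention after their values were seen. Slc5a3, which takes up myo-inositol, differed by -0.07 ± 0.05 at normal glucose and -0.27 ± 0.05 at high glucose. Its probes gave -0.26 and 0.12 at normal glucose, and -0.27 and -0.26 at high glucose. Slc6a6, the taurine carrier, differed by 0.14 ± 0.08 and -0.24 ± 0.08, and Slc6a12, the betaine carrier with a dim probe, by 0.08 ± 0.53 and -0.19 ± 0.53. At high glucose 43.1% of all genes were below 0. Akr1b7, an aldo-keto reductase near Akr1b3 and Akr1b8, also named after its values were seen, differed by 0.04 at normal glucose and 0.45 ± 0.15 at high glucose. At 5 mM glucose the largest difference of the list was that of Fn3k, which removes fructosamines from proteins, at 0.53 ± 0.53 from 1 dim probe.

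In the hexosamine list, Oga (Mgea5 in the array design), the enzyme that removes O-GlcNAc, had the largest difference at high glucose. Its mean signals over 2 probes were 1963, 1899, 1635 and 1273. It differed without pyruvate by 0.01 ± 0.06 at normal glucose, a mean of opposite values of its probes, -0.20 and 0.21. At high glucose it differed by -0.39 ± 0.07, and its probes gave -0.59 and -0.20. Between the glucose concentrations it differed by -0.49 without pyruvate, beside -0.16 for Ogt, the enzyme of the opposite reaction. At 5 mM glucose the largest was Cmas, which activates sialic acid, at 0.25 ± 0.10.

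In the remaining lists the largest differences were small. Glod5, a glyoxalase domain protein, differed by -0.17 ± 0.53 at normal glucose and -0.23 ± 0.53 at high glucose from signals near the background. S100b, a ligand of RAGE and a Schwann cell marker, differed by 0.19 ± 0.09 at normal glucose and 0.25 ± 0.09 at high glucose. S100a8, another S100 protein, had the largest difference of its list at high glucose, at 0.27 ± 0.18 from signals of 54.0 and 66.3.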

How the data were processed

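Per the labels, total RNA of IMS32 cells was labelled with Cy3 and hybridized to Agilent arrays. The authors deposited the intensity of each spot from Agilent Feature Extraction 11.5.1.1, named in the submitters' processing notes, after background subtraction and without scaling between arrays. The deposited ratio table holds this intensity divided by the 75th percentile of the transcript spots, which was checked for all 44397 features of each array to a relative tolerance of 0.0001. The study names GeneSpring GX for its analysis, and its settings are not given in the sources used here.

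After removal of control and outlier spots, the spots of a probe were averaged, and the log2 of the array's 75th percentile was subtracted from the log2 intensity. A probe entered a comparison where it was well above background on both of its arrays, and a gene is the mean of its measured probes, also where the probes disagree. The threshold was 2-fold, and the share of all genes past it is given as background. The 10 alternatives were another percentile, quantile, cyclic loess and spike-in scaling, 2 filters, the brightest probe, 1.5-fold, the deposited ratio and normexp (offset 50). The calculations were tested on simulated data that held only the spot error, for pyruvate at normal glucose. Of 21717 genes, 200 were given 4-fold changes, and all 200 were recovered. Spot error alone put 100 unchanged genes past 2-fold. In the real arrays 175 genes passed with the same filter, probes well above background on all 4 arrays.

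The members and lists were chosen with earlier results of these data known. All members are named, and from each further list the genes past 2-fold and the gene with the largest difference for pyruvate at each glucose concentration. Slc5a3, Slc6a6, Slc6a12 and Akr1b7 are named in addition to this rule, chosen after their values were seen. Some cell type markers are not reported here by name, but they stay in the counts and sums. Probe sequences, names and positions (mm9) are those of the array files, all 10 members matched a RefSeq symbol (GRCm38.p6), and exon or UTR annotation in mm9 was not used here. Python 3.11.15, numpy 2.4.6, pandas 2.3.3, matplotlib 3.10.9 and limma 3.58.1 under R 4.3.3 were used.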

Additional observations from a re-analysis of the deposited data

Results flagged for a closer look

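For Akr1b8 and Hagh, the difference without pyruvate was below 0 at normal glucose and above 0 at high glucose, in each case by more than the SD within an array. Opposite signs alone were found for 49.6% of all genes, and the share that also passed this SD was not computed. The scanner software's error of a single value was 0.144 for both probes. That is larger than both differences of Akr1b8 and than that of Hagh at high glucose. The difference at high glucose minus that at normal glucose was 0.13 for Akr1b8 and 0.32 for Hagh. Whether the effects differ between the glucose concentrations was not tested, since each condition had 1 array.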

How the results depend on the processing

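The 1.5-fold threshold does not enter a difference, so the values of the members were recomputed under the other alternatives. Of 450 such values, 392 moved by less than the SD within an array. Of the 58 that moved, 36 did so with spike-in scaling and 10 with the brightest probe. Part of the 392 was fixed in advance. The filter to probes well above background on all arrays kept all 14 measured probes and could change no value. The brightest probe could change only the 4 genes with several probes, and dropping the filter only Gfpt1. Of the 40 differences, 18 kept their sign in every setting, and the largest fold of a member in any of them was 1.72. With spike-in scaling, which used 8 of the 10 spike-in probes, the median over the members was -0.22 for pyruvate at normal glucose, -0.28 for glucose with pyruvate and -0.044 without, the median of the crossed difference was 0.22 (0.07 as reported, 0.02 with quantile normalization, 0.03 with cyclic loess and -0.0002 with normexp), and 411 genes passed 2-fold for glucose with pyruvate, against 223. The shift of all genes gives this by construction. It also moved the split of all genes past 2-fold to 84 higher and 221 lower for pyruvate at normal glucose, from 127 and 144, to 50 and 361 for glucose with pyruvate, from 100 and 123, and to 140 and 538 without, from 216 and 329. For glucose with pyruvate the split was 138 and 90 with quantile normalization, 125 and 91 with cyclic loess and 5 and 2 with normexp.

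In the order pyruvate at normal and high glucose, then glucose with and without pyruvate, 271, 473, 223 and 545 genes passed 2-fold. With normexp 9, 88, 7 and 92 did, without a filter on dim probes 1291, 2049, 1286 and 2196, and at 1.5-fold 793, 1480, 741 and 1653. Restricting the probes to those well above background on all arrays left 175 for pyruvate at normal glucose. At 1.5-fold 1 member, Ager, passed in each of the 2 comparisons with [Glc 15 mM/Pyr (−)], and 2 genes of the further lists passed for glucose without pyruvate. Without the filter 1 gene of those lists passed 2-fold for pyruvate at normal glucose. The lower threshold and the added dim probes give these counts by construction, and for normexp the cause was not tested. The differences of dim probes, Ager above all, are limited by signal over background. No paired analysis was possible because the labels carry no replicate numbers and each condition has 1 array, so no replicate could be left out either.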
